A study of Zea mays with 47 samples.

Results

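The step from 25°C to 32°C was examined in leaves of young maize plants of 8 inbred lines. The comparison used the 15 libraries labelled with the middle heat level and the 16 libraries labelled with the control level, which are 31 of the 47 libraries of the study, and the line was a term of the fit. Plants of the control grew at 25°C by day and 20°C by night, and plants of the moderate heat level grew at 32°C by day and 27°C by night, starting on day 6 after a common start at the control temperatures. All were sampled at an age of 21 days. Each library was made from ribosome-depleted total RNA of the latest fully developed leaf, with leaf pieces of 5 plants pooled. L012, L017, L023 and L043 are Flint lines, and S058, S067, S070 and P040 are Dent lines. The study counted S058, S067, L043 and L012 as heat tolerant and L023, L017, S070 and P040 as heat susceptible. Every line had 2 libraries per heat level, except L017 with 1 at 32°C. Each heat level was a growth chamber run of its own, so that the effect of 32°C and that of the run cannot be told apart.

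Heat unfolds proteins and makes membranes more fluid. Plants respond through heat stress transcription factors, which switch on genes of heat shock proteins, that is, of chaperones that hold or refold damaged proteins. Maize is a C4 plant in which mesophyll cells fix carbon dioxide by phosphoenolpyruvate carboxylase and bundle sheath cells refix it by Rubisco, and prolonged warmth also alters pigment synthesis, nitrogen use, hormone signalling and water transport.

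Totals per library ranged from 7747441 to 20642205 counts at 25°C (median 15240394) and from 8059394 to 17529195 at 32°C (median 11026623). Of the 17905 genes, 13510 reached 2 CPM in at least 2 of the 31 libraries and were tested. All other CPM are counts scaled to a common library total, with TMM, a factor that aligns the bulk of the genes between libraries, so that the values of a few very abundant genes can exceed their plain share. The TMM factors ran from 0.54 to 1.01 at 25°C and from 0.92 to 3.11 at 32°C. The cutoff of the filter thus tended to be at a higher scaled level at 25°C than at 32°C. Below, 3 CPM values given for a heat level are its lowest, median and highest library, with n = 16 at 25°C and n = 15 at 32°C. A difference is the fitted log2 ratio of 32°C to 25°C with its standard error (SE), and a gene is called higher or lower at an adjusted p under 0.05 (edgeR's quasi-likelihood F test, Benjamini-Hochberg).

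Libraries that did not resemble their labelled line were looked for first. With the mean of the heat level removed and the 2 libraries described next left out of the line profiles, 28 of the 31 libraries correlated best with the other libraries of their own line, at r between 0.327 and 0.732. The library labelled S070 at 32°C, replicate 1, correlated with P040 at r = 0.636 and with S070 at 0.034. The library labelled P040 at 32°C, replicate 1, correlated with S070 at r = 0.644 and with P040 at -0.077. These libraries, called below the 2 libraries in question, kept their labels here. The main counts and some further results are also given without them, and all other values include them. The library labelled P040 at 25°C, replicate 1, was closest to L017 at r = 0.375, against 0.08 with P040. The library of P040 at 32°C, replicate 2, stood apart in its composition, with the highest TMM factor (3.11, next 1.88) and the lowest share of counts in the 5 most counted genes (51.0%), and it is the single 32°C library of P040 once the 2 libraries in question are left out.

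At 32°C, 3049 genes (22.6% of those tested) were higher and 2778 (20.6%) were lower than at 25°C, together 43.1%. Most differences were small. The median size of a called difference was 0.66 on the log2 scale, the median difference of all genes tested was 0.01, and 870 genes (6.44%) rose and 583 (4.32%) fell by more than 1. Beyond 2 there were 193 rises and 82 falls. A gene near 0 at 1 heat level was tested only if libraries of the other level passed the filter. For such genes the direction was partly fixed by the filter, whose cutoff also tended to favour 32°C libraries. The difference had one sign in all 8 lines for 1453 of the genes called higher and 1318 of those called lower. Without the 2 libraries in question 2986 genes were higher and 2747 lower, and without P040 at 32°C, replicate 2, 2972 and 2880. All 32°C libraries lay above all 25°C libraries for 32 genes (0.237% of those tested) and below them for 49 (0.363%). In these leaf pools fewer cells of a type and less RNA per cell cannot be told apart.

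The first principal component of log2 CPM held 19.2% of the variance and was higher at 32°C in 8 of 8 lines. The mean line difference was 70.2 ± 13.4 (SD, n = 8 lines), from 44.4 in S058 to 87.6 in L043. The exact two-sided sign-flip test over lines gave p = 0.00781, the smallest it can give, and without the 2 libraries in question the mean was 62.6 ± 12.5 with the same p. On the second component all Flint libraries had positive and all but 1 of the Dent libraries negative scores, and its line differences did not pass the test (mean 1.39 ± 18.4, exact p = 0.844, n = 8). Without the 2 libraries in question the components were recomputed, and the second was then also higher at 32°C in 8 of 8 lines (mean 31 ± 21.2, exact p = 0.00781, n = 8).

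**Figure D1:**
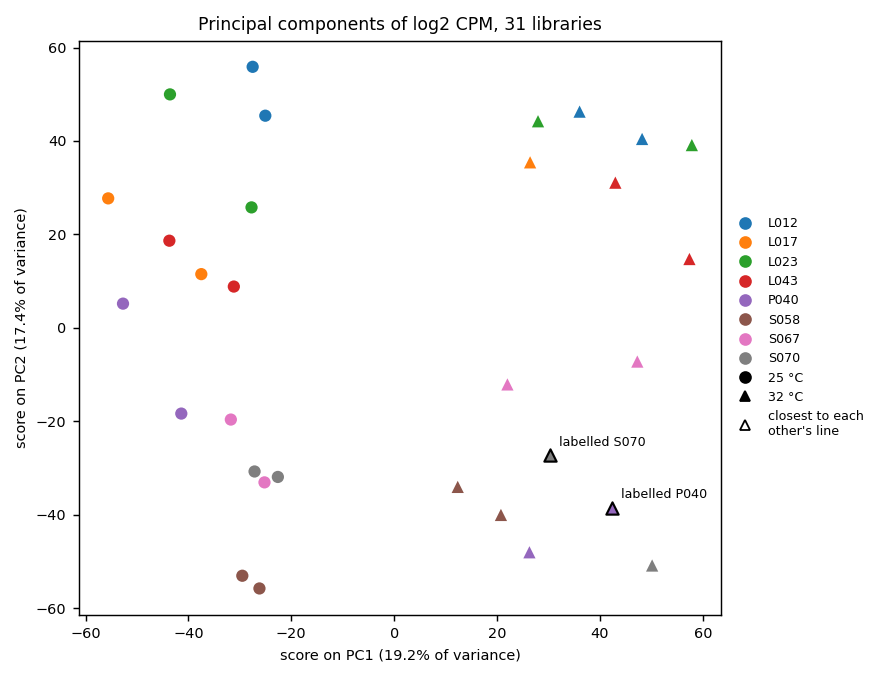
Scores of the 31 libraries on the first (19.2% of variance) and second (17.4%) principal component of log2 CPM, with circles for 25°C, triangles for 32°C, and colours for the lines; black outlines mark the 2 libraries in question. All 25°C libraries lie left and all 32°C libraries right of 0 on the first component.

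The genes that hold most of the counts fell. At 25°C, 11 genes with more than 1% of the counts each took 76.5, 83.2 and 88.1% of a library (lowest, median and highest), and at 32°C they took 60.8, 72.7 and 79.0%. The share was lower in 8 of 8 lines, with a mean difference of -9.88 percentage points (SD 3.67, exact sign-flip p = 0.00781, n = 8 lines). The 5 most counted genes took 76.2% of the counts in the median library at 25°C and 63.0% at 32°C.

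The most counted was GRMZM5G844143, described as a Q(B) protein of photosystem II. Such proteins are encoded in the chloroplast, whereas the study counted reads on nuclear gene models, and from which copy the reads came was not tested. Its level was 196000, 263000 and 351000 CPM at 25°C and 45300, 153000 and 187000 CPM at 32°C. It decreased by 0.96 (SE 0.12, adjusted p = 7.72e-07), with no overlap between the heat levels in TMM-scaled CPM. GRMZM2G427369, GRMZM2G040858, GRMZM2G455413 and GRMZM2G427404, the last described as a chloroplast ribosomal protein, fell by 0.95 to 0.98 on the log2 scale, also without overlap. Their levels kept a nearly fixed ratio to the first gene in all 31 libraries (0.921 to 0.981 for GRMZM2G427369 and 0.258 to 0.291 for GRMZM2G427404). They may share reads from one source and are uncertain as separate genes. The sizes and the separation hold for TMM-scaled values. The plain share of the 5 most counted genes overlapped, with 64.5 to 84.0% at 25°C and 51.0 to 72.6% at 32°C. GRMZM2G427444 and GRMZM2G427557 were also lower, with differences of -0.49 and -0.67, and the other 4 of the 11 genes did not pass the test, among them GRMZM2G062854 with -0.06 (SE 0.12).

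**Figure D2:**
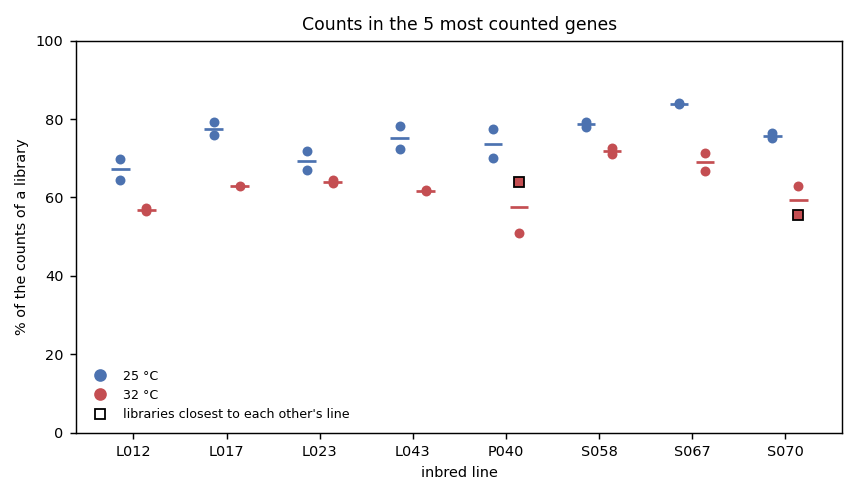
Percent of the counts of each library in the 5 most counted genes, for each line at 25°C (blue) and 32°C (red); points are libraries, short lines are means and outlined squares are the 2 libraries in question. In each line both heat levels stay apart, with the lower shares at 32°C; the median library falls from 76.2 to 63.0%.

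Heat shock proteins moved in both directions. Of 14 genes with such symbols, 8 passed the filter, of which 4 were higher and 2 lower, with a median difference of 0.43 against 0.01 over all genes and with 22.6% of all genes higher. In the wider set of 26 genes that the study's supplement assigns to heat stress, 14 were tested, of which 10 were higher and 1 lower (8 and 1 without the 2 libraries in question), with a median difference of 1.67. A further 7 of its 12 genes under the filter were higher in a fit without filter. That set was chosen for heat response on libraries that include these, so it is not independent evidence of its direction. Of the genes with heat shock symbols, the 2 that fell were the most abundant of those called, the HSP90 chaperone genes. HSP90-1 (GRMZM2G024668) had 55.3, 102 and 165 CPM at 25°C and 13.5, 41.3 and 137 CPM at 32°C, a difference of -1.02 (SE 0.18, adjusted p = 4.14e-05). HSP90-2 (GRMZM2G012631) had 45.8, 62.1 and 104 CPM at 25°C and 27.5, 37.5 and 48.7 CPM at 32°C, a difference of -0.79 (SE 0.09, adjusted p = 4.81e-08). Both were lower in 8 of 8 lines, with overlap between the heat levels. The HSP90-class gene hsp82 (GRMZM5G833699) was near the detection limit, with 0, 0.124 and 0.374 CPM at 25°C and 0, 0.531 and 4.84 CPM at 32°C. Only 32°C libraries took hsp82 over the filter. It rose by 2.56 (SE 0.48, adjusted p = 0.000107), in 8 of 8 lines, although 7 of the 15 libraries at 32°C stayed within the range of the control. Among Flint libraries at 32°C only L043, replicate 2, exceeded that range (0.585 CPM). Among Dent libraries only S058, replicate 1, did not (0.0709 CPM). The sign in some Flint lines thus rests on very low values, such as 0.115 and 0.13 CPM in L023 at 32°C.

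The Hsp70 class was mixed. Hsp70 (GRMZM2G310431) differed by 1.01 (SE 0.38, adjusted p = 0.0333), higher in 5 of 8 lines, and the call was lost in 15 of the alternatives, among them without line P040 (0.67, adjusted p = 0.126), S058 (0.13), S067 (0.105) or S070 (0.0995). The abundant hsp70-4 (GRMZM2G340251) had a median of 103 CPM at both heat levels and a difference of 0.11 (SE 0.16, adjusted p = 0.584), and hsp70-5 (GRMZM5G802801) gave 0.07 (SE 0.21). The mitochondrial chaperonin genes GRMZM2G458208 and GRMZM2G111477, which share the symbol HSP60-1, rose by 0.81 and 0.75, and mtcpn60II (GRMZM2G416120) by 0.82 (SE 0.27), all from medians under 1 CPM at 25°C. GRMZM2G458208 was not called without line L043 (adjusted p = 0.0623), nor GRMZM2G416120 without P040 (adjusted p = 0.061).

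Small heat shock proteins, which hold unfolded proteins until they can be refolded, were at the limit of detection at both temperatures. Of the 6 heat shock genes under the filter, 3 were called higher in a fit without filter. For hsp26 (GRMZM2G149647) 9 counts were recorded over the 16 libraries at 25°C and 131 over the 15 at 32°C, where the highest library reached 1.9 CPM (difference 2.89, SE 0.56, adjusted p = 0.000224 by edgeR). For hsp18f (GRMZM2G083810) there were 8 and 99 counts (2.58, SE 0.69, adjusted p = 0.00442), and for hsp22 (GRMZM2G007729) 39 and 127 (1.07, SE 0.41, adjusted p = 0.043). The disaggregase gene hsp101 (GRMZM2G360681) had a median of 0.497 CPM at 25°C and 0.51 CPM at 32°C and was not called (adjusted p = 0.504), and neither were hsp18c and hsp18a.

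Of 8 heat stress transcription factors, 6 were tested, of which 1 was higher and 3 were lower (66.7% called, against 43.1% of all genes). Hsf01 (GRMZM2G165998), the most abundant, had 29.3, 42.3 and 55.3 CPM at 25°C and 20.2, 27 and 38.8 CPM at 32°C. It fell by 0.66 on the log2 scale (SE 0.07, adjusted p = 8.47e-08), in 8 of 8 lines. HSF29 (GRMZM2G179802) fell by 0.56 and Hsf05 (GRMZM2G132971) by 0.47, whereas HSF6 (GRMZM2G059851) rose by 1.10 (SE 0.26, adjusted p = 0.000983) from a median of 0.509 to 1 CPM. Another ID with the symbol Hsf05, GRMZM2G133023, was under the filter and not called without it (-0.17, SE 0.273). Under the filter, Hsf17 (GRMZM2G125969) was lower in the fit without filter (-1.19, SE 0.17, adjusted p = 4.64e-06).

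Chaperones of the endoplasmic reticulum, which fold secreted proteins, were mixed. Of 14 tested members, 2 were higher and 5 lower (50% called, near the 43.1% of all genes), with a median difference of -0.24. The binding protein genes bip1 (GRMZM2G114793) and bip2 (GRMZM2G415007) fell by 0.59 and 0.67 on the log2 scale, and the calreticulin gene crt2 (GRMZM2G358059) fell by 0.68 (SE 0.13, adjusted p = 8.53e-05). The disulfide isomerase gene pdi3 (GRMZM2G134889) was among the 2 higher genes (0.61, SE 0.20), but was not called without line P040 (adjusted p = 0.091) or S070 (adjusted p = 0.0994).

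The largest rises and falls with one sign in all 8 lines, among genes of at least 1 log2 CPM on average, were in genes of several kinds. GRMZM2G146981, which none of the tables used here annotates, had 0, 0 and 0.635 CPM at 25°C and 0.284, 3.95 and 27.5 CPM at 32°C (difference 6.34, SE 0.55, adjusted p = 1.59e-09). GRMZM2G028665, also without annotation, had 0, 0.254 and 0.776 CPM at 25°C and 0.567, 13.2 and 88.6 CPM at 32°C (6.17, SE 0.50). In each of these genes only the lowest libraries at 32°C reached down to the control range. GRMZM2G017186, described as exhydrolase II, a cell wall glucanase by that name, had 0, 0.417 and 1.6 CPM against 2.04, 10.8 and 64.8 CPM (4.95, SE 0.43, adjusted p = 1.76e-09), with no overlap. GRMZM2G146981, GRMZM2G028665 and GRMZM2G017186 passed the filter only through 32°C libraries, so their direction was fixed by it. A germin-like protein gene (GRMZM2G064096) rose by 4.97, a DnaJ domain gene (GRMZM2G343149), from the family of co-chaperones of Hsp70, by 4.23 (SE 0.44), and the thiamine synthesis gene thi2 (GRMZM2G074097) by 2.77. The ribonuclease gene kin1 (GRMZM2G158394) went from a median of 4.99 to 46.4 CPM (2.87, SE 0.41, adjusted p = 2.98e-06).

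On the lower side, GRMZM2G173710, assigned to cytokinin signal transduction by the study, was almost lost at 32°C. It had 3.46, 8.99 and 18.7 CPM at 25°C and 0, 0.309 and 2.35 CPM at 32°C, without overlap (-4.11, SE 0.29, adjusted p = 4.48e-11). GRMZM2G144997 had a difference of -3.5 (SE 0.29) and GRMZM2G147819 one of -2.32 (SE 0.15, adjusted p = 1.63e-11), the latter with 32.8, 51.1 and 80.6 CPM against 3.77, 10.5 and 21.1 CPM. Neither overlapped between the heat levels, and both lack a described role. HrBP1 (GRMZM2G015285), whose name stands for a harpin binding protein, went from a median of 6.25 to 1.35 CPM (-2.08, SE 0.20), also without overlap.

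Among the large falls picked by the naming rule were 3 genes for inositol and raffinose sugars, osmolytes that accumulate in stressed plants, and their direction was fixed by that choice. INO1 (GRMZM2G155242), a gene of inositol phosphate synthesis, had 2.22, 8.21 and 34.8 CPM at 25°C and 0.205, 1.17 and 3.21 CPM at 32°C (-2.94, SE 0.37, adjusted p = 4.31e-07). The mips2 gene (GRMZM2G004528) for myo-inositol phosphate synthase had a difference of -1.92 (SE 0.23), and gols3 (GRMZM5G872256) for galactinol synthase, which starts the raffinose family, one of -1.90 (SE 0.22). All were lower in 8 of 8 lines, which the naming rule also required.

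**Figure D3:**
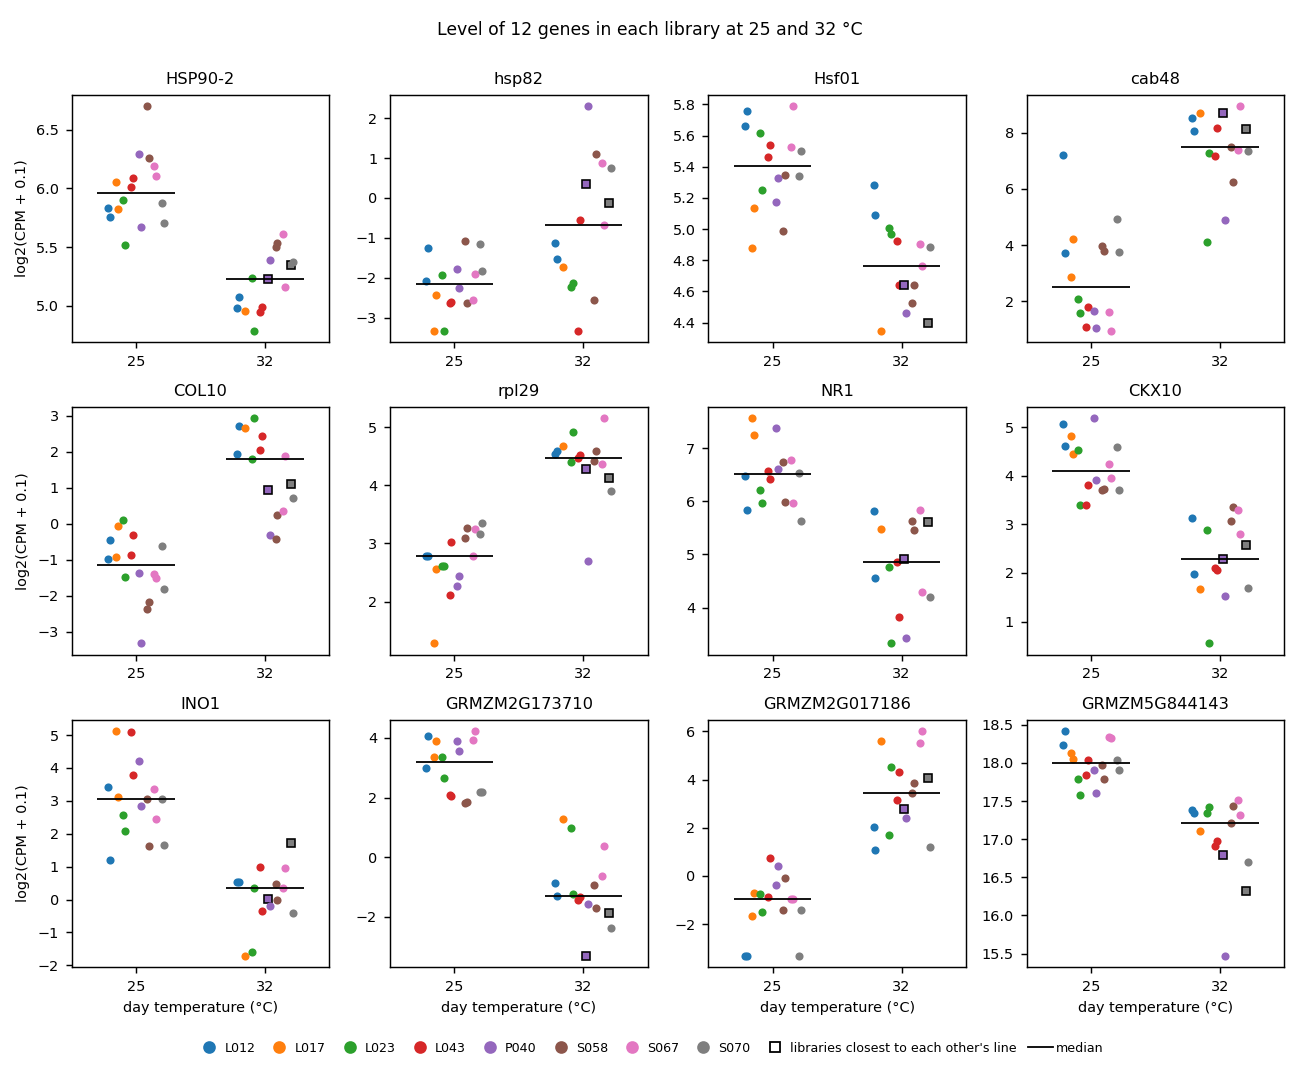
Levels of 12 genes in each library as log2(CPM + 0.1), at 25°C (16 libraries) and 32°C (15 libraries); colours are lines, horizontal bars are medians and outlined squares are the 2 libraries in question. HSP90-2, Hsf01, NR1, INO1 and GRMZM5G844143 are lower at 32°C, cab48, COL10 and rpl29 are higher, and GRMZM2G173710, CKX10 and GRMZM2G017186 do not overlap between the heat levels.

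Nuclear genes of the photosystems and the light-harvesting antenna, the chlorophyll proteins that feed light energy to the reaction centres, were mostly higher. Of 12 members, all tested, 10 were higher and 1 was lower, against 22.6% and 20.6% of all genes. The median difference was 0.77, and without the 2 libraries in question 8 were higher and 1 lower. The chlorophyll a/b binding protein gene cab48 (GRMZM2G120619) had 1.82, 5.63 and 146 CPM at 25°C and 17.3, 180 and 499 CPM at 32°C (4.70, SE 0.54, adjusted p = 1.36e-07). It was higher in 8 of 8 lines, and one L012 library at 25°C stood far above the other controls. GRMZM2G104549, GRMZM2G429955 and AC208915.3_FG010 rose by 4.42, 4.43 and 4.5, from medians of 10.2, 11 and 8.72 CPM to 298, 294 and 250 CPM. These 3 genes carry no symbol or description and are not members of the list. They are given here for their levels, which were 0.71 to 2.65 times those of cab48, and their function was not tested. Antenna genes of the list that rose besides cab48 included cab-m1 (GRMZM2G351977, 1.72, SE 0.26), lhcb3 (GRMZM2G155216, 1.13) and lhcb6 (GRMZM2G092427, 0.97). The more abundant lhcb7 (GRMZM2G402936) rose by only 0.41 (adjusted p = 0.0379), a call that was lost in 27 of the alternatives, among them without the 2 libraries in question (0.36, adjusted p = 0.102), and lhcb4 (GRMZM2G103101) was not called. The exception was psbs1 (GRMZM2G077333), whose product disposes of excess light energy as heat and which had 49.3, 69.5 and 98.9 CPM against 12.9, 45.4 and 72.2 CPM (-0.72, SE 0.17, adjusted p = 0.00107).

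Among 15 tested genes of the C4 cycle and Rubisco 1 was higher and 5 were lower, a share called of 40% against 43.1% of all genes, with a median difference of -0.15. C4 phosphoenolpyruvate carboxylase pep1 (GRMZM2G083841), a mesophyll marker, had medians of 1260 and 1310 CPM (0.07, SE 0.16, adjusted p = 0.74). Pyruvate phosphate dikinase pdk1 (GRMZM2G306345), which regenerates its substrate, had 1240, 1560 and 2450 CPM at 25°C and 425, 1040 and 1630 CPM at 32°C (-0.77, SE 0.14, adjusted p = 5.75e-05). Another phosphoenolpyruvate carboxylase gene, pep4 (GRMZM2G473001), fell by 1.18, and Rubisco activase rca1 (GRMZM2G162200) fell by 0.58 (SE 0.19, adjusted p = 0.013). The Rubisco small subunit gene GRMZM2G113033 was the 1 member that rose (0.97, adjusted p = 0.0421), and it was not called in 28 of the alternatives, among them without the 2 libraries in question (0.77, adjusted p = 0.14).

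Summed markers of leaf cell types were lower in the median library at 32°C, but single markers differed. The summed level of 4 mesophyll markers was 2210, 3020 and 4370 CPM at 25°C and 955, 2350 and 3690 CPM at 32°C, lower in 7 of 8 lines (exact sign-flip p = 0.0234, n = 8). Of these only pdk1 was called (-0.77), with 0.07 for pep1, -0.14 for mdh6 and -0.60 for GRMZM2G121878. The sum of 5 bundle sheath markers was 648, 1230 and 2290 CPM against 210, 968 and 1660 CPM, lower in 5 of 8 lines (exact p = 0.0625). Its members went both ways, from -0.58 for rca1 to 0.97 for the Rubisco small subunit gene GRMZM2G113033. The epidermal wax gene gl1 (GRMZM2G114642) went from a median of 4.5 to 1.3 CPM (-1.46, SE 0.22), and the sucrose transporter gene sut1 of the phloem (GRMZM2G034302) from 62.4 to 44.2 CPM (-0.49, SE 0.11). Markers of dividing tissue summed to medians of 19.1 and 16.7 CPM (exact p = 0.0703, n = 8). The part of cell composition in the other results was not tested.

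Pigment synthesis was split. Of 14 tested genes of chlorophyll and carotenoid synthesis 5 were higher and 4 lower, with a median difference of -0.18. The share called was 64.3%, against 43.1% of all genes. The protochlorophyllide reductase gene por (GRMZM2G073351), of the light-driven step to chlorophyll, had 10.4, 17.4 and 72.5 CPM at 25°C and 20.6, 63.1 and 121 CPM at 32°C (1.64, SE 0.19, adjusted p = 2.13e-07). Phytoene synthase psy2 (GRMZM2G149317), of the entry step to carotenoids, went from a median of 1.93 to 0.312 CPM (-2.76, SE 0.29), and the carotenoid isomerase gene CRTISO1 (GRMZM2G108457) rose by 0.85. The symbol pds1, for phytoene desaturase, is carried by 2 IDs that differed: GRMZM5G815358 rose by 3.62 (SE 0.34) from a median of 0.161 to 2.34 CPM, while GRMZM2G410515, with medians of 9.76 and 10.5 CPM, had a difference of 0.06 (SE 0.10, adjusted p = 0.69). SGR2 (GRMZM2G091837), a stay-green gene of the family that acts in chlorophyll breakdown, fell by 2.29 on the log2 scale (SE 0.23).

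Genes around the circadian clock were higher where they changed, in 5 of 6 tested members, against 22.6% of all genes, with a median difference of 0.78. The list includes the CONSTANS-like genes COL10, COL5 and COL8, and it holds no gene named CCA1, LHY or TOC1. The CONSTANS-like gene COL10 (GRMZM2G012717) had 0, 0.348 and 0.977 CPM at 25°C and 0.638, 3.35 and 7.48 CPM at 32°C (3.06, SE 0.25, adjusted p = 5.01e-10). Only 32°C libraries took COL10 over the filter. It was followed by COL5 (GRMZM2G075562, 1.61, SE 0.19), the pseudo-response regulator PRR59 (GRMZM2G135446, 0.80, SE 0.12) and the gigantea genes gigz1b (GRMZM5G844173, 0.77) and gigantea1 (GRMZM2G107101, 0.46), all higher in 8 of 8 lines. COL8 (GRMZM2G114137) was not called (-0.19, SE 0.16). Among light signalling genes, the phytochrome gene PhyB2 (GRMZM2G092174) rose by 0.97 and PIF5 (GRMZM2G165042), for a phytochrome-interacting factor, fell by 1.12 on the log2 scale. The hour of sampling was not analysed here.

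Among the lists of at least 6 tested genes, the highest share of rises was in cytosolic ribosomal proteins, the parts of the machinery that makes proteins. Of 33 tested members (of 36), 28 were higher and none was lower, against 22.6% and 20.6% of all genes, with a median difference of 0.64. Without the 2 libraries in question 30 were higher. Ribosomal protein L29 (rpl29, GRMZM2G028216) had 2.33, 6.78 and 10.1 CPM at 25°C and 6.41, 22.0 and 35.4 CPM at 32°C (1.66, SE 0.16, adjusted p = 1.15e-08). RPL19 (GRMZM5G887054) had 5.05, 8.44 and 12.3 CPM against 11.5, 19.4 and 25.6 CPM (1.18, SE 0.10, adjusted p = 1.69e-09). For both genes the lowest values at 32°C overlapped the highest controls. Ribosomal protein genes have near-identical copies in maize, and counts of single copies are uncertain. Of 32 tested chromatin genes 10 were higher and 2 lower (median 0.12), a share called of 37.5% against 43.1% of all genes. Among the called genes were the nucleosome assembly genes nfa103 (GRMZM2G157019, 1.33) and nfa101 (GRMZM2G140051, 1.24) and, on the lower side, the histone deacetylase gene hda101 (GRMZM2G172883, -0.45).

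In nitrogen assimilation 8 of 12 tested genes were lower and 1 higher, against 20.6% and 22.6% of all genes, with a median difference of -0.66 (7 lower without the 2 libraries in question). The nitrate reductase gene NR1 (GRMZM2G568636) had 49.1, 90.7 and 188 CPM at 25°C and 9.95, 28.9 and 56.9 CPM at 32°C (-1.55, SE 0.24, adjusted p = 7.1e-06). The nitrite reductase gene NIR (GRMZM2G079381), of the next step, had 6.14, 16.8 and 43.8 CPM against 4.42, 7.49 and 13.9 CPM (-1.11, SE 0.19). Both fell in 8 of 8 lines with some overlap of libraries. The nitrate transporter symbol Nrt1.1 belongs to 2 IDs with nearly equal counts (ratio 0.98 to 1.0), GRMZM2G041631 and GRMZM2G141491, each with -0.72, which may share reads and count as 2 of the 8. Downstream, the glutamine synthetase gene Gln1-4 (GRMZM2G036464, -0.73) and the ferredoxin-dependent glutamate synthase gene fgs1 (GRMZM2G036609, -0.71, SE 0.12) were lower. The asparagine synthetase gene asn3 (GRMZM2G053669) was the 1 that rose (3.23, SE 0.57), from a median of 0.0696 to 0.408 CPM, and it was not called when the 8 line differences were averaged (adjusted p = 1.0).

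In starch and sucrose metabolism 4 of 20 tested genes were higher and 6 lower, with a median difference of -0.04. The share called was 50%, near the 43.1% of all genes. Sucrose phosphate synthase sps1 (GRMZM5G875238), a main enzyme of sucrose synthesis, had 60.2, 86.5 and 213 CPM at 25°C and 10.2, 37.6 and 98.6 CPM at 32°C (-1.28, SE 0.19, adjusted p = 5.3e-06). The starch synthase genes GBSSIIa (GRMZM2G008263, -1.71, SE 0.22) and ss1 (GRMZM2G129451, -1.02, SE 0.15) were lower. The debranching enzyme gene zpu1 (GRMZM2G158043, 1.83) and a gene with the symbol of branching enzyme sbe1 (GRMZM2G088753, 1.10, SE 0.14) were higher.

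Water channels were lower or not called. Of 17 tested aquaporins 10 fell and none rose, against 20.6% and 22.6% of all genes, with a median difference of -0.65. All 9 tested members of the plasma membrane class (PIP) were among the falls. PIP1-5 (GRMZM2G081843) had 5.3, 10.2 and 18.9 CPM at 25°C and 0.977, 4.84 and 9.68 CPM at 32°C (-1.19, SE 0.24, adjusted p = 0.000201). PIP1-3 (GRMZM2G392975) had a difference of -1.05 (SE 0.19) and the low PIP2-4 (GRMZM2G154628) one of -2.01 (SE 0.43).

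Hormone lists are read against 22.6% of all genes higher and 20.6% lower. For ethylene and abscisic acid, which includes the type 2C phosphatases that hold back the abscisic acid signal, 11 of 24 tested genes were lower and 1 higher (median -0.30). PP2C29 (GRMZM2G053722) had 13.4, 21.1 and 26.5 CPM at 25°C and 6.89, 9.91 and 14 CPM at 32°C (-0.97, SE 0.10, adjusted p = 2.37e-08), PP2C2 (GRMZM2G134628) had a difference of -1.21 (SE 0.15), and ABI22 (GRMZM2G008356) was the 1 higher gene (0.51). For cytokinin, 6 of 15 tested genes were lower and none was higher (40% called, median -0.26). The cytokinin oxidase gene CKX10 (GRMZM2G348452), of cytokinin breakdown, had 10.4, 17.1 and 36.2 CPM against 1.37, 4.81 and 10.1 CPM (-1.82, SE 0.24, adjusted p = 8.5e-07) and did not overlap, and an ID with the response regulator symbol RR5 (GRMZM2G032496, -0.65) and the receptor gene HK3a (GRMZM2G158252, -0.78) were lower too. Other IDs with the symbol RR5 were under the filter and not called without it (GRMZM2G091597 -0.04, GRMZM2G156019 0.34 and GRMZM6G980248 -0.1). For auxin 3 of 17 were higher and 7 lower (5 and 8 without the 2 libraries in question). Among the lower auxin genes were both IDs of the transporter symbol PIN5a (GRMZM2G175983 and GRMZM2G025742, -1.14 and -1.11). For jasmonate 2 of 16 were higher and 5 lower (43.8% called, near the 43.1% of all genes), with lox4 (GRMZM2G109056, a lipoxygenase gene) at -1.32. None of the 4 tested gibberellin genes was called. In calcium signalling 7 of 15 were lower and none higher, with the kinase gene CIPK16 (GRMZM2G330049) at -2.03 (SE 0.27).

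Of 16 tested antioxidant genes 2 were higher and 5 lower (median -0.30), a share called of 43.8%, near the 43.1% of all genes. Ascorbate peroxidase apx2 (GRMZM2G140667), which removes hydrogen peroxide, had 13.8, 24.3 and 34.0 CPM at 25°C and 8.59, 11.4 and 17.4 CPM at 32°C (-0.88, SE 0.12, adjusted p = 1.2e-06). The superoxide dismutase gene sod9 (GRMZM2G058522) had a difference of -1.10, and the dehydroascorbate reductase gene dhar4 (GRMZM5G826194) one of 1.41. Glutathione S-transferases were called in 5 of 17 tested genes, a share of 29.4% against 43.1% of all genes. Of these 3 were higher and 2 lower, and without the 2 libraries in question 2 were higher and 4 lower. Among genes of benzoxazinoids, the defence compounds of maize, 2 of 10 were higher and 2 lower (40% called, near the 43.1% of all genes). The first gene of that pathway, bx1 (GRMZM2G085381), went from a median of 0.62 to 4.87 CPM (2.59, SE 0.46), and the beta-glucosidase gene glu1 (GRMZM2G016890), which frees the active compounds, from 1.67 to 0.362 CPM (-2.60, SE 0.38). Of 11 lipid and wax genes 2 were higher and 3 lower (45.5% called, near the 43.1% of all genes). The wax gene CER1 (GRMZM2G066578) was at -1.83 and the desaturase gene FAD2 (GRMZM2G056252) at 0.90.

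In families of transcription factors the shares called were 22.2% for 9 WRKY, 27.3% for 11 NAC, 27.3% for 11 AP2/EREBP, 35.5% for 31 MYB and bHLH, 30% for 20 homeobox and MADS and 47.1% for 17 bZIP genes, against 43.1% overall. The bZIP genes were higher in 6 and lower in 2 cases. MYBE1 (GRMZM2G145041) fell from a median of 9.39 to 1.62 CPM (-2.34, SE 0.28).

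**Figure D4:**
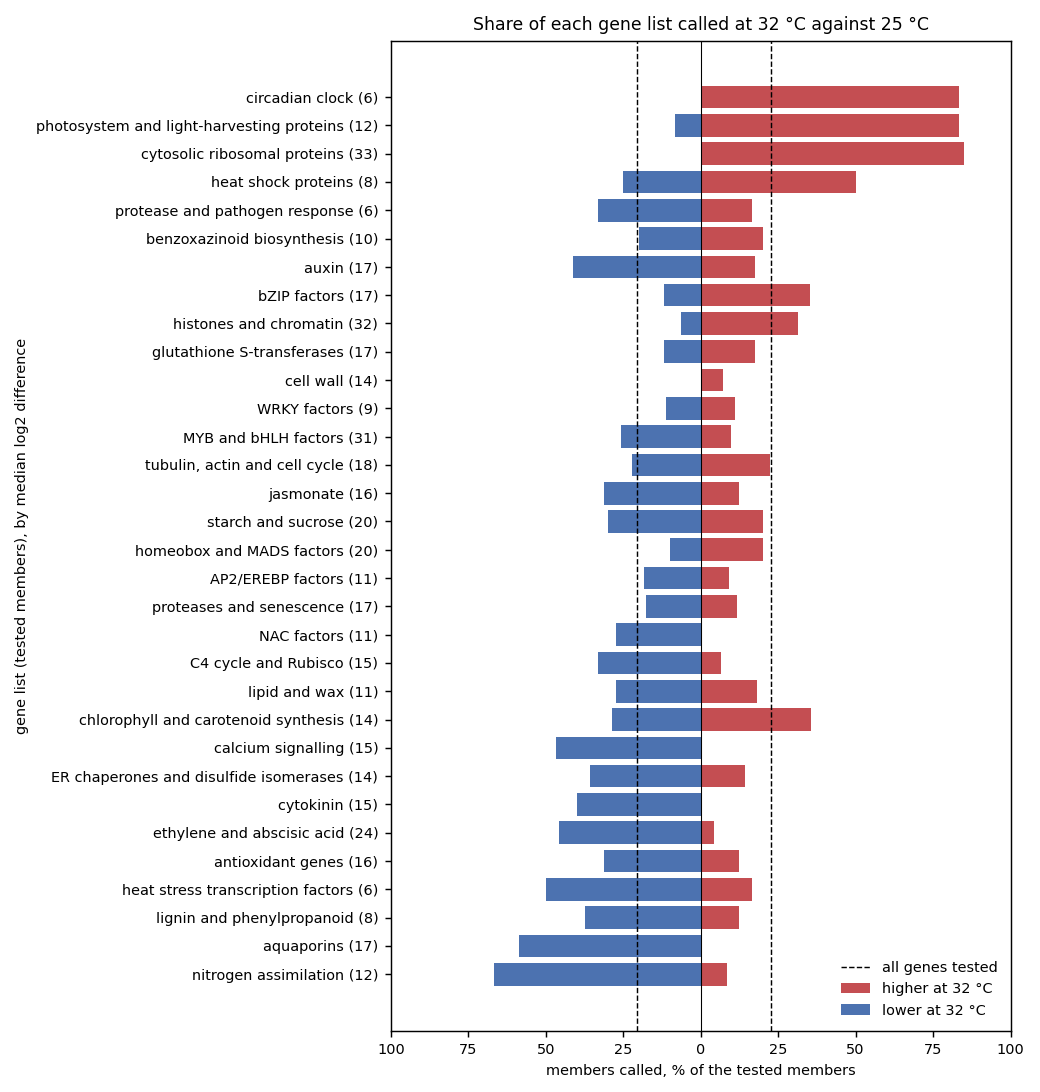
Share of the tested members of each list called higher (red, to the right) or lower (blue, to the left) at 32°C, with the number tested in brackets and the lists in order of their median log2 difference; dashed lines mark all genes tested (22.6% higher, 20.6% lower). The circadian clock list, which includes CONSTANS-like genes, and the photosystem and ribosomal protein lists lie far to the right, and nitrogen assimilation and aquaporins to the left.

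A set named common heat responsive in the study, chosen on libraries that include these, is not independent evidence of its direction. Of its 14 members 12 were tested here, of which 4 were higher and 7 lower (3 and 7 without the 2 libraries in question), against 22.6% and 20.6% of all genes. The 2 members under the filter, hsp22 and hsp26, were both called higher in the fit without filter. The higher ones among the tested members were hsp82, kin1, GRMZM2G111014 (DNA synthesis or chromatin structure by the study's assignment, median 1.14 to 4.38 CPM, difference 1.85, SE 0.20) and GRMZM2G366532 (heat response, 3.91, SE 0.62). The lower ones included GRMZM2G439195, a nicotianamine synthase gene of metal handling (-1.61, SE 0.17), GRMZM2G125314 (LOL3, -1.82) and GRMZM2G114588, an isoflavone reductase gene (-2.41, SE 0.28), with medians of 27.1 and 3.17 CPM. AC209784.3_FG007, assigned to Hsp70, was not called (0.60, SE 0.39, adjusted p = 0.221). Actin1 (GRMZM2G126010), often taken as a reference gene, had 3.94, 7.98 and 13.9 CPM at 25°C and 2.23, 4.43 and 13.4 CPM at 32°C (-0.81, SE 0.17, adjusted p = 0.000491).

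Within single lines, tested in a joint fit with 1 mean per line and heat level, fewer genes were called. The numbers were 355 (2.63%) in L012, 222 (1.64%) in L017, 777 (5.75%) in L023, 1357 (10.0%) in L043, 1995 (14.8%) in P040, 162 (1.2%) in S058, 388 (2.87%) in S067 and 699 (5.17%) in S070. Without the 2 libraries in question, which enter the shared estimate of the spread, they were 706 (5.44%), 557 (4.29%), 1359 (10.5%), 2188 (16.9%), 2878 (22.2%), 655 (5.05%), 1028 (7.92%) and 1087 (8.37%) in the same order of lines. The value of P040 then rests on 1 library at 32°C, replicate 2, and without P040 at 25°C, replicate 1, in addition P040 had 1794 calls, fewer than L043 with 2253. Without P040 at 32°C, replicate 2, alone, P040 had 1605 and L043 1853. Leaving out 1 library of the line itself left as few as 0 calls in S058 and 1 in L017. With the replicate number as a block the numbers were 850, 538, 1334, 2036, 2840, 382, 848 and 1387. Genes that rose by more than 1 over all lines had a median difference of 0.93 in S058 and 1.52 in L043, and genes that fell by more than 1 had -0.85 in S058 and -1.59 in L043, with the other lines in between.

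Whether the step differed between any lines was tested by the 7 interaction terms. It was called for 29 genes (0.215% of those tested), for 143 with the replicate block, for 75 without P040 at 32°C, replicate 2, and for 938 (7.23%) without the 2 libraries in question, and for 528 without the library labelled P040 at 32°C, replicate 1, alone, so that this count rests on how these libraries are treated. GRMZM2G175593 and GRMZM6G704070, IDs of 1 gene in the reference table with counts in a ratio of 0.818 to 1.0, had the smallest p (adjusted p = 0.00172 each). The line differences of GRMZM2G175593 were 3.39 in L043, 4.28 in P040 and 4.11 in S070 and lay between -1.12 in S058 and 0.24 in L012 in the other 5 lines. GRMZM5G840002, described as the small subunit of 3-isopropylmalate dehydratase, an enzyme of leucine synthesis, showed the same 3 lines in front. It had 2.65, 4.17 and 6.52 CPM at 25°C and 6.81, 9.82 and 105 CPM at 32°C, without overlap, and the line differences were 4.23 in L043, 3.29 in P040 and 4.10 in S070 against 0.56 to 1.61 in the other lines (interaction adjusted p = 0.00927). GRMZM5G801409 differed less in size, from -0.61 in S067 to 1.09 in P040 (adjusted p = 0.00397). The P040 and S070 values of these genes include the 2 libraries in question.

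Of the 14 tested cell wall genes, 10 were called in the interaction without the 2 libraries in question, against 7.23% of all genes tested there, and none was called with them. The genes above 1% of counts had 9 of 11 called there, and tubulin, actin and cell cycle genes 9 of 18. The cell wall genes are named here after their values were seen. The cellulose synthase gene cesa7 (GRMZM2G025231) was lower at 32°C in 6 of 8 lines, by as much as -2.41 in L043, and higher in P040 (1.36) and S070 (0.85), and without the 2 libraries the difference was 4.19 in P040 and 1.36 in S070 (adjusted p = 0.000131). Its 32°C libraries spanned 0.905 to 143 CPM with a median of 3.27 CPM. The gene cesa2 (GRMZM2G027723) had the same order, with 3.51 in P040 and 0.74 in S070 without the 2 libraries and -2.18 in L023 (adjusted p = 5.39e-05). The values of P040 without the 2 libraries rest on 1 library at 32°C, replicate 2. Without that library alone, cesa7 differed by -1.16 (adjusted p = 0.00113) and cesa2 by -1.15 (adjusted p = 0.000902) over all lines, whereas neither was called with all libraries. With all libraries 1 of the 14 was called over all lines, and each of the lines with a rise has 1 library in question at 32°C.

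The step of Flint lines differed from that of Dent lines for 4 genes (0.0296%), 10 with the replicate block, 2 by limma-voom, 11 without P040 at 32°C, replicate 2, 156 without the library labelled P040 at 32°C, replicate 1, and 223 (1.72%) without the 2 libraries in question. GRMZM2G052036 rose more in Flint lines, where it differed by 1.80 to 2.86, than in Dent lines, where it differed by 0.22 to 1.34 (difference of the steps 1.87, SE 0.32, adjusted p = 0.0322). GRMZM2G156517 fell more in Flint lines, with -2.96 to -2.15, than in Dent lines, with -1.33 to -0.60 (-1.62, SE 0.29, adjusted p = 0.0412). GRMZM2G148807 was lower in all 4 Flint lines and higher in S058 and S067 (-1.98, SE 0.33, adjusted p = 0.0322). The other was GRMZM2G070863, lower in all Flint lines and higher in S058, S067 and S070 (-1.75, SE 0.26, adjusted p = 0.016). The values of these 4 genes include the 2 libraries in question, both labelled as Dent lines. With the lines as replicates, 4 against 4, limma called 0 of the genes tested.

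For 0 genes (0.0%) was a different step called between susceptible and tolerant lines (edgeR, smallest adjusted p = 0.103, with 1112 genes at an unadjusted p under 0.05). The replicate block called 15 and limma-voom 0, whereas leaving out the 2 libraries in question called 302 (2.33%) and leaving out the library labelled P040 at 32°C, replicate 1, called 109. Both of these libraries belong to susceptible lines.

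**Figure D5:**
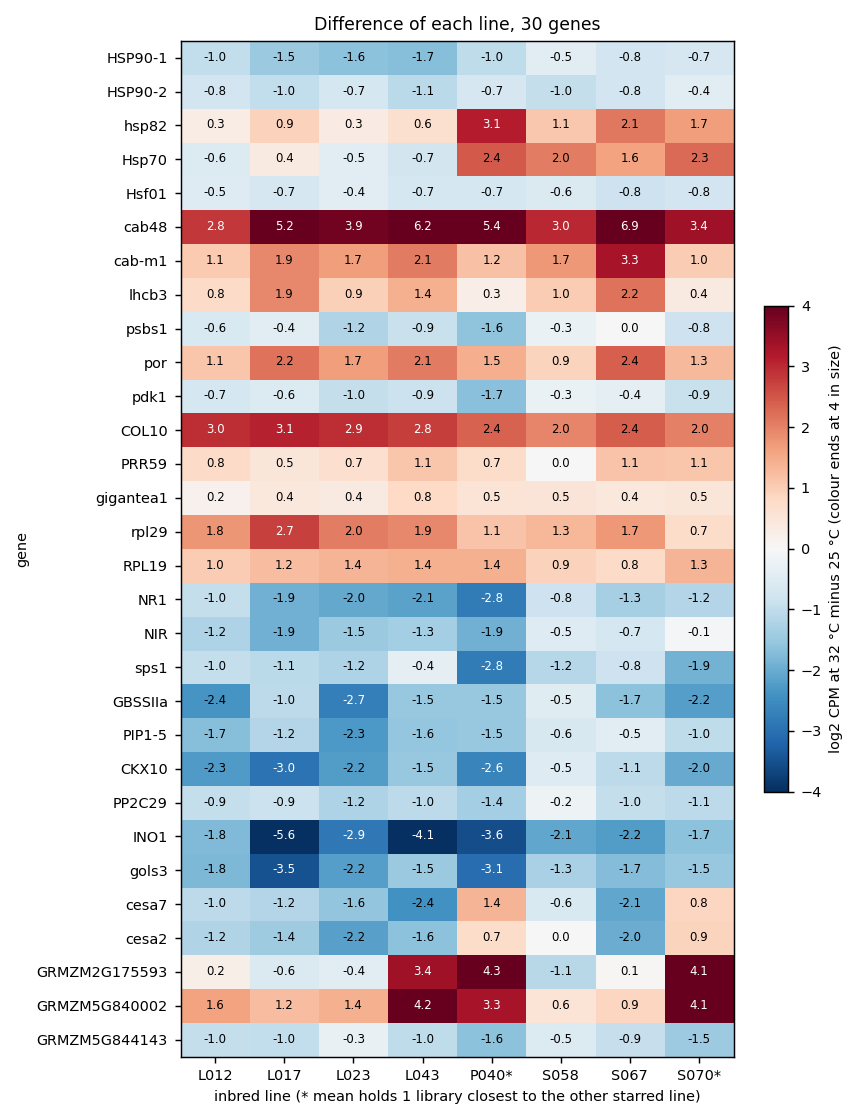
Difference of log2 CPM between 32°C and 25°C within each of the 8 lines for 30 genes, as numbers and as colours (red higher, blue lower at 32°C). HSP90-1, Hsf01, NR1, INO1 and GRMZM5G844143 are lower and cab48, COL10 and rpl29 higher in every line, while cesa7, cesa2 and GRMZM2G175593 differ in sign between lines.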

How the data were processed

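Total RNA depleted of ribosomal RNA was sequenced as single-end reads. Per the submitters' processing notes, TopHat2 2.0.3 and the B73 RefGen_v3 maize build were used, and the deposited values are raw counts of reads per protein-coding gene model of the nuclear chromosomes, after the authors' filter on low genes, for 17905 genes in 47 libraries. Whether counting used strand, and the sequencing lanes of the libraries, are not given in the sources used here, so overlapping and near-identical genes are uncertain. Of the tested genes, 60 had the same counts as another gene in all 31 libraries. The 38°C libraries were not used, and group labels were taken from the sample titles, whereas pools and tolerance classes are those of the study's methods.

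The 31 libraries at 25°C and 32°C were analysed with edgeR 4.0.16 in R 4.3.3 (glmQLFit and glmQLFTest, TMM, prior count 0.125) on genes with at least 2 plain CPM (before TMM) in at least 2 libraries, with line and heat level as terms. The interaction, the contrasts between groups of lines and the step within lines came from a fit with 1 mean per line and heat level, in which the single L017 library at 32°C is assumed to vary like the other groups. Adjusted p-values are Benjamini-Hochberg values over all genes tested, at a threshold of 0.05. Single values were tested by exact sign flips over 8 lines, two-sided, where 0.00781 is the smallest p. In simulated counts, the fit of the step over all lines and the average of the line differences recovered most known changes. The interaction, the contrasts between lines, the steps within lines and the sign flips were not simulated. Exchanged labels and a shift of composition between the heat levels were not simulated either.

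Same-numbered libraries deviated together from their group means (r between 0.156 and 0.358 in 7 lines), so the numbers were taken to pair them and the replicate block was fitted as an alternative. The values of P040 (0.267) and S070 (0.172) include the 2 libraries in question. Correlations between different lines were not calculated, so pairing within a line cannot be told apart from an effect of the number common to all lines. Further alternatives were DESeq2 1.42.0 size factors and test, limma 3.58.1 (voom), other filters, thinning to 7747441 counts, leaving out the genes above 1% of counts, each line or each library, and averaging the line differences. Chosen after the data were seen were the share of counts without the 2 libraries in question and the fits between and within lines with no filter.

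Gene names came from a RefSeq table for another assembly, which matched 12358 IDs (1773 with a symbol), and from the study's supplement. The members of the comparison and the gene lists were chosen with earlier results of these data known. Named genes were the 12 largest rises and falls with one sign in all 8 lines and at least 1 log2 CPM, the same among annotated genes, up to 4 members of each list with the largest difference, the genes with the smallest p in the interaction and the contrasts, the 14 common genes of the study with Actin1, genes above 1% of counts and the most abundant called genes. Some of these are given here, together with further list members for the heat shock, photosystem and clock lists. Figures were made in Python 3.11.15 using matplotlib 3.10.9. Sequences were not used here.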

Additional observations from a re-analysis of the deposited data

Results flagged for a closer look

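The step at 32°C differed between lines, by the interaction test of edgeR, for 7 genes with the smallest p among genes of at least 1 log2 CPM. The adjusted p was 0.00172 for GRMZM2G175593 and 0.00172 for GRMZM6G704070, which are IDs of 1 gene, 0.00397 for GRMZM5G801409, 0.00498 for GRMZM2G175610, 0.00927 for GRMZM2G109677, 0.00927 for GRMZM2G014089 and 0.00927 for GRMZM5G840002. GRMZM2G175610 had differences of 3.00 in L043, 3.56 in P040 and 3.77 in S070 and lay between -0.88 and 0.15 in the other 5 lines, which is the order of GRMZM2G175593. GRMZM2G014089 differed by 2.49 in P040 and 3.52 in S070 and by -2.37 in S058. GRMZM2G109677 ranged from -0.50 in S067 to 1.19 in P040. All these P040 and S070 values include the 2 libraries in question.

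The step differed between Flint and Dent lines for GRMZM2G148807 (adjusted p = 0.0322), GRMZM2G052036 (adjusted p = 0.0322), GRMZM2G156517 (adjusted p = 0.0412) and GRMZM2G070863 (adjusted p = 0.016), and GRMZM2G148807 (adjusted p = 0.0317) and GRMZM2G070863 (adjusted p = 0.0317) also in the interaction. Line differences of GRMZM2G148807 were -2.60 in L023 and 1.32 in S058 at the ends. Among the 8 line differences of the first principal component, and of the share of counts in the 11 genes, no line stood apart by Dixon's criterion.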

How the results depend on the processing

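The counts over all lines stayed within 1.5 times under every alternative run, from 2475 to 3579 higher and from 2100 to 3220 lower genes, and without single libraries from 2855 to 3047 and from 2594 to 2880. The replicate block gave 3222 higher and 2919 lower genes, and the block of line and replicate number 3019 and 2807. Counts between and within lines moved. The interaction had 29 genes, 938 without the 2 libraries in question, 671 without these and P040 at 25°C replicate 1, 143 with the replicate block, and 14 to 528 without single libraries (528 without P040 at 32°C replicate 1). Flint against Dent had 4, then 223, 209, 10 with the block, 2 by limma-voom, 0 with lines as replicates and 0 to 156. Tolerance had 0, then 302, 235, 15 and 0 to 109. Within lines, without the 2 libraries and without 3, the counts were 706 and 764 in L012, 557 and 602 in L017, 1359 and 1402 in L023, 2188 and 2253 in L043, 2878 and 1794 in P040, 655 and 701 in S058, 1028 and 1079 in S067 and 1087 and 1171 in S070. With the replicate block they were 850, 538, 1334, 2036, 2840, 382, 848 and 1387 in the same order, and limma-voom gave 116 in L012, 94 in L017 and 245 in S058. Without single libraries they ranged from 11 to 540 in L012, 1 to 447 in L017, 8 to 1175 in L023, 114 to 1888 in L043, 748 to 2505 in P040, 0 to 425 in S058, 19 to 817 in S067 and 50 to 1236 in S070. The lowest counts within lines came without a library of that line and the highest without one of P040 at 32°C. The cause of these moves was not tested. Among 150 genes and 7785 values, 7671 kept direction and call, 80 lost a call (12 genes), 21 gained one and 13 changed sign (8 genes). The last were hsp70-4 (GRMZM2G340251) at -0.006 without the 2 libraries, hsp70-5 (GRMZM5G802801) at -0.007, -0.007, -0.044 and -0.021 without S058, S067, S070 or S067 at 32°C replicate 1 (up to 0.168 without L023 at 32°C replicate 2), GRMZM2G410515 at -0.009 without S058, GRMZM2G062854 at 0.041, 0.012 and 0.010 without P040, S070 or P040 at 32°C replicate 2 (down to -0.108 without L023 at 25°C replicate 2), GRMZM2G014089 at -0.003 without S070, cesa2 (GRMZM2G027723) at 0.312 and cesa7 (GRMZM2G025231) at 0.521 without the line term, and hsfb (GRMZM2G118453) at -0.064 in thinned libraries. None of these was called over all lines with all libraries, but without line P040 cesa2 (adjusted p = 0.0033) and cesa7 (adjusted p = 0.00343) were called lower, as they were without P040 at 32°C replicate 2, and without S058 GRMZM2G014089 was called higher (adjusted p = 0.0222). GRMZM2G175593 and GRMZM2G175610 were not called over all lines without L043. Depth limits genes of few counts, such as the small heat shock proteins, for which a missing call does not show that the level did not change.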
